A study of Mus musculus with 4 samples.

Results

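The genes described here lie at the distal ends of the mouse autosomes. A gene was taken as a member where its midpoint lay within 5 Mb of the distal end of chromosomes 1 to 19, the end being set at the end of the last RefSeq gene annotated on that chromosome in GRCm38.p6. Of 18967 autosomal genes with a matched array probe, 1039 were members, and 724 of these (69.7%) were bright enough to be tested, against 12035 of 17928 other autosomal genes (67.1%). Position alone decided which genes were members, and brightness which of them were tested. The set itself was chosen with earlier results of these data known. Liver RNA of *Rap1* -/- mice and wild-type mice of the C57BL6/129SV (90%:10%) background was compared on 4 Agilent 2-colour arrays, with 3 biological replicates per genotype. The labels give an age of 30 weeks and no sex, whereas the study's text gives another age and says that the mice were females. The knockout is whole-body and constitutive, made by deleting floxed *Rap1* with an early embryonic *EIIa*-cre, so that no cell type of the liver keeps the intact gene and changes may have arisen at any time in development. The *Rap1* -/- liver carried Cy5 on the arrays of replicates 1, 2 and 3 and Cy3 on a dye-swapped array, which the labels number 1 and which was therefore averaged with replicate 1, leaving n = 3 pairs.

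RAP1, the product of *Terf2ip*, is a subunit of shelterin, the protein complex that coats the TTAGGG repeats of telomeres, and reaches the repeats through its partner TRF2. In budding yeast its namesake silences genes placed close to telomeres, and mouse RAP1 is also known to bind sites outside telomeres. The study cites earlier work in which these mouse sites were more frequent in subtelomeric regions, where RAP1 helped to repress genes. Mouse chromosomes carry the centromere close to one end, so that gene-bearing subtelomeric sequence lies at the distal end only, which makes the distance to that end a direct way to ask where transcripts differ when RAP1 is missing.

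Repeats like those of the telomere also occur singly in promoters near the ends. Promoter windows from RefSeq (GRCm38.p6), each reaching from 250 bases before to 50 bases after a gene's start, were found for 593 of the 724 tested members. They were searched on both strands for TTAGGG, and 64 of the 593 genes (10.8%) held it. By window, 69 of the 750 windows of these members (9.20%) held it, against 3483 of 32851 windows (10.6%) of all genes in the table. None of the members' windows held 2 repeats in a row, which 4 of all windows did. Among the 64 members with the motif 25 (39.1%) were called different at an FDR under 0.15, 19 higher and 6 lower, and among the 529 without it 163 (30.8%) were called, where 34.5% of all tested probes were. The median log2 fold change of the members with the motif was 0.090, but their median on the dye-swapped array was -0.045, and the difference between members with and without it was not tested. Of the other autosomal genes 79.7% had a window, under the 80% set for such a comparison, so none is given. The stretches shown are those around the motif of the members that were called, had 1 direction on all 4 arrays and carried the motif upstream of the start. Capitals mark TTAGGG or its reverse complement, and each stretch runs 5′ to 3′ on the strand of the gene.
Cr1l: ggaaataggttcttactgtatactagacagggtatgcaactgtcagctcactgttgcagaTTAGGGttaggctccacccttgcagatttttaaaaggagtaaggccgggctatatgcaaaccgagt
B3gntl1: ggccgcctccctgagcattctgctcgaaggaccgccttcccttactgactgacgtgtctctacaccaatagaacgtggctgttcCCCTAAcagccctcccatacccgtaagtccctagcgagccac
Thap3: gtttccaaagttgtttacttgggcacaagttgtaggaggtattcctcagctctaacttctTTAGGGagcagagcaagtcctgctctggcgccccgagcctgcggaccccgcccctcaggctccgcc
Odf3: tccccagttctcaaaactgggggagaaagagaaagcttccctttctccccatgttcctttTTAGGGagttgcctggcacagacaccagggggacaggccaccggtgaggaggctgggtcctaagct
Septin9: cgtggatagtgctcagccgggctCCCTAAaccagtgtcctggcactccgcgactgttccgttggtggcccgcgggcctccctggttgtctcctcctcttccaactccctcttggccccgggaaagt

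In GRCm38.p6 the stretch of *Cr1l*, a complement receptor relative, lies at chr1:195131575-195131700 on the minus strand, and that of *B3gntl1*, a glycosyltransferase, at chr11:121673152-121673277 on the minus strand. The stretch of *Thap3*, a zinc finger protein, lies at chr4:151989011-151989136 on the minus strand. On the plus strand lie those of *Odf3*, a sperm tail fibre protein, at chr7:140847784-140847909 and of *Septin9*, a cytoskeletal GTPase, at chr11:117199411-117199536. The motif of *Cr1l* runs straight on into ttagg, the start of another repeat. *Cr1l* was lower in *Rap1* -/- liver, at -0.23 on the log2 scale (standard error 0.09), and the other 4 were higher, by 0.40 for *B3gntl1*, 0.23 for *Thap3*, 0.38 for *Odf3* and 0.56 for *Septin9*. On the dye swap the 5 genes read -0.00639, 0.14, 0.0358, 0.25 and 0.38 in that order. A match of these 6 letters is a description of the window and not a binding site.

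Beside these genes stand a few facts of the arrays as a whole. *Terf2ip* lies on chromosome 8, 17.3 Mb from the distal end, and is no member. Its probe A_52_P381806 exceeded background on 4 of 4 arrays in wild-type and on 0 of 4 in *Rap1* -/- liver, at least 3.33-fold lower (limma, adjusted p = 0.00859). The bound is set by the lowest signal above background and is open to dye bias, and a second probe of the gene, whose place relative to the deletion is not known here, was higher by 0.96 on the log2 scale. Precision is limited by the number of arrays, on which 50.1% to 56.4% of spots in each channel exceeded background. Over the 724 members the ratios of the 3 arrays with *Rap1* -/- in Cy5 correlated at r = 0.56 to 0.79, whereas the turned ratios of the dye swap gave r = -0.14, -0.25 and -0.23, a description across genes, which are not independent replicates. For this reason the genes described at length are shown with their dye-swapped value, and the counts over all members, the bins of distance and the ends of chromosomes also with 1 direction on all 4 arrays. Standard errors and adjusted p-values were taken after averaging replicate 1 with its dye swap, so they leave out the gap between those arrays. Hepatocyte markers were above background on all arrays in both genotypes, *Alb*, *Apoa1* and *Hnf4a* among them, as the label of liver says. Of 8 Kupffer cell markers, 0 were called higher by limma (0 also at an unadjusted p under 0.05) and 1 lower, but on the array of replicate 3 their median log2 ratio was 1.24, against -0.60, 0.07 and -0.29 on replicates 1 and 2 and the dye swap.

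Genes near the distal ends were called both higher and lower in *Rap1* -/- liver, and about as often as genes elsewhere. At a Benjamini-Hochberg FDR under 0.15 in limma, 226 of the 724 members (31.2%) were called different, 137 higher and 89 lower. The share was 34.2% of the other autosomal genes and 34.5% of all tested probes. Of the called members 91 (40.3%) had the same direction on the dye-swapped array, against 39.5% of the called other genes. Most calls thus ran against the dye swap, in both sets. Members were called higher in 18.9% of cases, against 18.1% of the other genes, and lower in 12.3%, against 16.1%. With 1 direction required on all 4 arrays, 42 members (5.80%) were higher and 47 (6.49%) lower, against 6.07% and 6.96% of the other autosomal genes. With a dye term fitted over the 4 arrays, 47 members (6.49%) were called, against 6.44% of the others. With probes required to be well above background in both genotypes, 681 members were tested and 206 (30.2%) called, 123 higher and 83 lower. The share was then 33.1% of the other autosomal genes. No test over the members was made.

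The share of calls going up rather than down depended on the scaling. Of the called members 60.6% were higher after loess, 48.0% with the scanner software's own processed signals, 42.5% in the authors' value table and 89.8% with median centring alone, which moved the median of all tested probes from 0.03 to 0.17 on the log2 scale. The median log2 ratio of the members was 0.05 on replicate 1, 0.04 on replicate 2, 0.04 on replicate 3 and -0.02 on the dye-swapped array. Over the 3 pairs it was 0.03 ± 0.01 (SD of the pair medians), against 0.01 ± 0.02 for the other autosomal genes. A median of the members a little above that of the other autosomal genes was found with each of the 4 scalings. Both medians were negative with the processed signals, at -0.04 and -0.07, and in the authors' value table, at -0.04 and -0.06. Against all tested probes the members were above with loess (0.034 and 0.026) and median centring (0.20 and 0.17). They were below with the processed signals (-0.039 and -0.038) and in the authors' value table (-0.037 and -0.034). On the dye-swapped array the members lay below the other autosomal genes, at -0.02 and 0.01.

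The outermost stretch held fewer increases than the bins farther in. Within 1 Mb of the end 17 of 144 tested genes (11.8%) were called higher and 21 (14.6%) lower. In the next 4 bins of 1 Mb between 19.3% and 22.7% were higher and between 7.80% and 13.8% lower. Beyond 5 Mb the share called higher was 21.0% at 5 to 10 Mb, 18.8% at 10 to 20 Mb, 17.8% at 20 to 50 Mb and 17.9% farther in, and the share called lower ran from 14.8% to 16.5%. The outermost bin held more decreases than increases also without background correction (21 and 18), with the processed signals (23 and 12), in the authors' value table (31 and 13) and with a dye term (6 and 4), but not with median centring (5 and 19) and not without replicate 1 (27 and 30), and it held 0 calls without replicate 2, where limma called 0 members. With probes well above background in both genotypes, the outermost bin held 20 decreases and 13 increases among 136 tested genes. No difference between bins was tested.

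**Figure D1:**
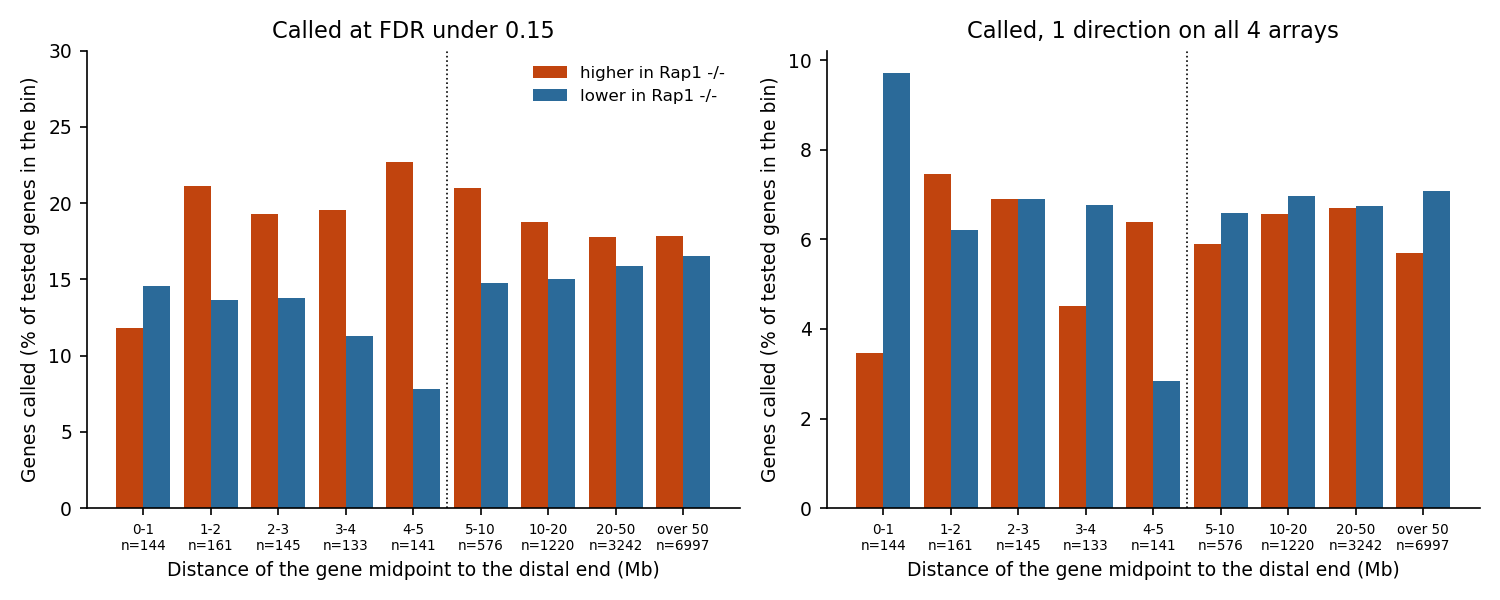
Percent of tested autosomal genes called higher (orange) or lower (blue) in Rap1 -/- liver, by distance of the gene midpoint to the distal end in Mb, with n tested genes under each bin; the dotted line marks 5 Mb. Left, all calls of limma at an FDR under 0.15, where the outermost bin reads 11.8% higher and 14.6% lower; right, calls with 1 direction on all 4 arrays, where it reads 3.47% higher and 9.72% lower.

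With 1 direction on all 4 arrays, 5 genes within 1 Mb of an end were higher and 14 lower, 3.47% and 9.72% of the bin. The 5 that rose were *Cr2*, a complement receptor of B cells, *Sdf4*, a calcium-binding protein of the Golgi, *Cdk11b*, a cyclin-dependent kinase, *B3gntl1* and *C2cd2*, a C2 domain protein. *Cdk11b*, 0.718 Mb from the end of chromosome 4, read 0.27, 0.29 and 0.23 in replicates 1 to 3 and 0.28 in the dye swap, the most even of these (0.26, standard error 0.08, adjusted p = 0.0893). The 14 that fell included the retroelement silencing factor *Resf1*, the endothelial transcription factor *Sox18*, the G protein subunit *Gnb1*, the small GTPase *Rab40b*, the translation factor subunit *Eif3a* and the zinc finger genes *Zfp131* and *Zfp750*. The others were *Cr1l*, *Slc35e2*, *Caprin2*, *2610044O15Rik8*, *Fyco1*, *Olfr821* and *Metrnl*. *Sox18*, *Gnb1*, *Rab40b*, *Zfp750*, *Metrnl*, *Cdk11b*, *Cr1l* and *B3gntl1* fall outside the rule for naming genes and were named after their values were seen.

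**Figure D2:**
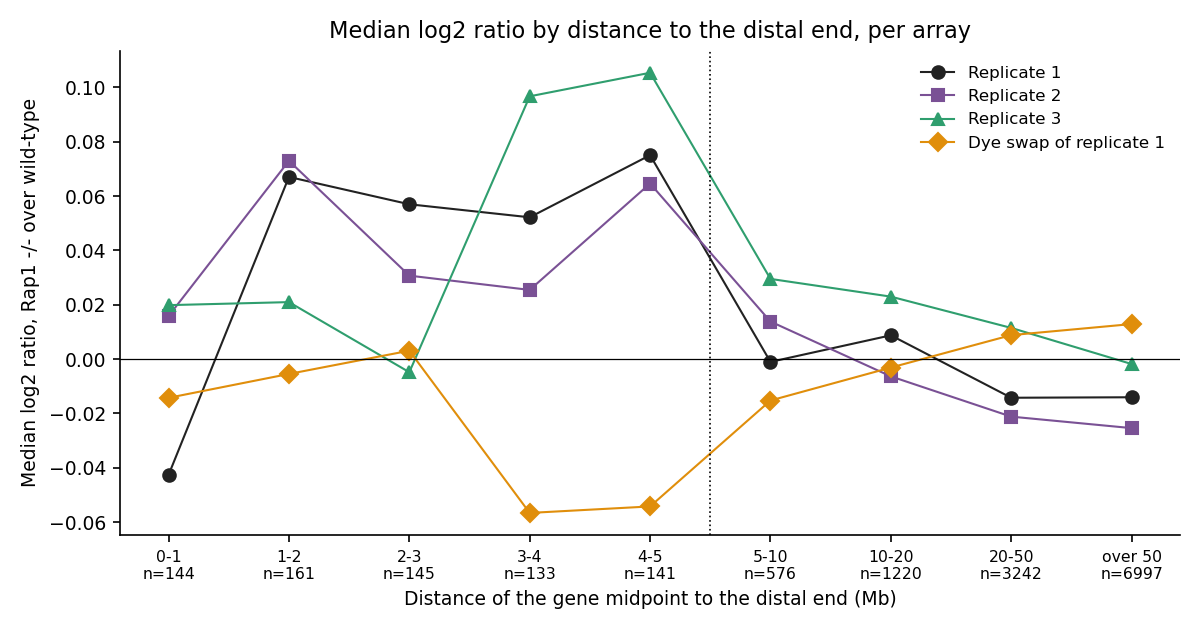
Median log2 ratio of Rap1 -/- over wild-type liver in bins of distance to the distal end (Mb), with 1 line per array and n tested genes under each bin; the dotted line marks 5 Mb. All medians lie between -0.06 and 0.11, and at 3 to 5 Mb the arrays with Rap1 -/- in Cy5 lie above 0 while the dye-swapped array lies below it.

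The outermost tested gene was called at 8 of the 19 ends, where 34.2% of the other autosomal genes were called. At 11 ends it was not called. Among these were *Ppp2r3d*, a phosphatase subunit on chromosome 9, at -0.06, *Noc2l*, a repressor of p53 on chromosome 4, with -0.01, *Polr3k*, a subunit of RNA polymerase III on chromosome 2, with -0.05, and *Rfc3*, a clamp loader subunit on chromosome 5, with -0.06 on the log2 scale. *Cr2* at the end of chromosome 1 rose by 0.29 (standard error 0.08, adjusted p = 0.0794), with 0.36, 0.38, 0.27 and, on the dye swap, 0.10, although another *Cr2* probe read -0.01. *2610044O15Rik8* on chromosome 8 (-0.24), *Resf1* on chromosome 6 and *Olfr821* on chromosome 10 fell, with all 4 arrays below 0. The other 4 called genes had a dye-swapped value against their direction. *Fgf14*, a regulator of sodium channels on chromosome 14, read 0.98, 1.12 and 0.64 and -0.20 on the swap. Its probe was well above background on 4 arrays in *Rap1* -/- liver but on 2 in wild-type, so it was tested through *Rap1* -/- liver alone. *Mettl4*, a methyltransferase on chromosome 17, read 0.38, 0.42 and 0.42 and -0.11. *Wls*, which escorts WNT proteins to the cell surface, read -0.63, -0.83 and -0.42 and 0.09 at the end of chromosome 3. *Csf2ra*, the receptor subunit for GM-CSF at the end of chromosome 19, read 0.15, 0.76 and 1.78 and -0.26, and its highest value was on the array of replicate 3, where Kupffer cell markers were high.

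The ends of single chromosomes differed in their share of calls. Chromosome 19 had the largest share higher among ends with over 20 tested genes, 10 of 24 (41.7%), with 4 lower, and chromosomes 5 and 16 the smallest, 3 of 32 (9.38%) and 2 of 27 (7.41%). With 1 direction on all 4 arrays chromosome 11 held 12 of the 42 increases, among 92 tested genes (13.0%), and chromosome 6 held 5 decreases among 26 (19.2%). Of the other autosomal genes 18.1% were called higher, and with 1 direction on all 4 arrays 6.07% were higher and 6.96% lower. The ends hold between 3 and 92 tested genes each, and the differences between them were not tested. On chromosome 11 the 12 were *B3gntl1*, *Lrrc45*, *Mafg*, *P4hb*, *Slc25a10*, *Actg1*, *2810410L24Rik*, *Tbc1d16*, *Engase*, *Timp2*, *Tha1* and *Septin9*, at 0.281 to 4.64 Mb from the end. They include *Mafg*, a small MAF transcription factor (0.39, standard error 0.10, with 0.24 on the dye swap), *Actg1*, cytoplasmic actin (0.31, standard error 0.10, with 0.23), and *Engase*, which frees glycans from misfolded proteins (0.25, standard error 0.09, with 0.26). Most other probes of these genes were below 0 on the dye swap. They read 0.92 and 0.99 for *Mafg* (swap -0.08 and -0.14) and 0.43 for *Engase* (swap -0.11). For *Actg1* they read 1.49, 1.25 and 1.08 (swap -0.24, -0.36 and -0.41) and 0.20 (swap 0.49). The 5 decreases of chromosome 6 were *Resf1*, *Caprin2*, *Rps4l*, *Med21* and *1700073E17Rik*, the last 3 at -0.47, -0.27 and -0.28. Those genes of the 2 chromosomes that the rule does not name were named after their values were seen.

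**Figure D3:**
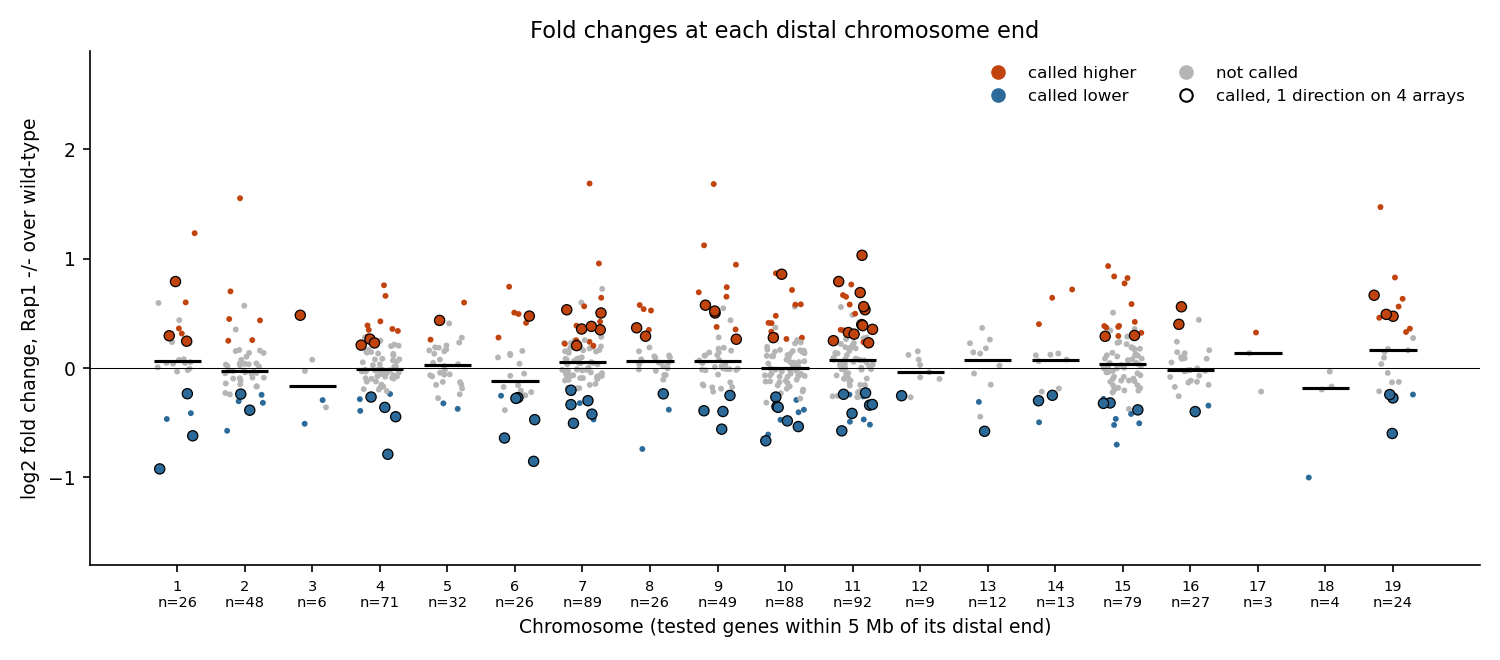
Log2 fold change of each of the 724 tested genes within 5 Mb of a distal end, by chromosome (n tested genes under each), with points spread sideways at random. Orange marks genes called higher, blue lower and grey not called; outlined points had 1 direction on all 4 arrays, and a black line marks the median of each end, which lies between -0.18 and 0.17.

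Neighbouring genes near the ends did not share a direction more often than genes elsewhere. Of 705 pairs of neighbouring tested members, 342 (48.5%) had fold changes of the same sign, against 53.3% of 12016 pairs of other autosomal genes. Where both neighbours were called, 33 of 70 pairs of members (47.1%) agreed in sign, against 888 of 1500 (59.2%). Members were about as bright as other genes, with a median mean log2 intensity of 8.99 against 9.06. In 4 classes of equal size by brightness, from dim to bright, 20.8%, 33.0%, 40.1% and 30.8% of members were called, against 26.0%, 38.9%, 36.5% and 35.6% of the others.

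Among the members called with 1 direction on all 4 arrays, the 12 largest increases lay between 0.52 and 1.03 on the log2 scale. *Slc25a10*, the dicarboxylate carrier of the inner mitochondrial membrane, read 1.92, 1.20 and 0.91 on the Cy5 arrays and 0.04 on the dye swap. All 4 values were positive, but the 2 arrays of replicate 1 were far apart, and the call of the mean of 1.03 (standard error 0.10, adjusted p = 0.0329) was lost with a dye term (adjusted p = 0.167). *Rdh16*, a retinol dehydrogenase, read 0.84, 1.11, 0.88 and 0.33 (0.86, standard error 0.12, adjusted p = 0.0402). *G0s2*, an inhibitor of the triglyceride lipase ATGL, read 1.57, 0.24 and 0.95 and 0.79 on the swap, so that its lowest value was that of replicate 2 (0.79, standard error 0.19, adjusted p = 0.0574, and 0.170 with a dye term). *Timp2*, an inhibitor of matrix metalloproteinases, had the most even values of the 12, with 0.74, 0.60, 0.81 and 0.58 (0.69, standard error 0.09, adjusted p = 0.0402), and another of its probes read 0.26. It was the 1 member of the 724 still called when the dye-swapped array was entered as a replicate of its own. *Dclre1a*, a nuclease of DNA cross-link repair, read 0.17, 0.98, 0.77 and 0.32 (0.67, standard error 0.15), and its call was also lost with a dye term (adjusted p = 0.226).

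The other 7 of the 12 largest increases lay between 0.52 and 0.79. *P4hb*, the disulfide isomerase that also serves prolyl hydroxylase, read 0.88, 0.55, 0.40 and 0.40 (0.53). *Cdkn1c*, a CDK inhibitor, read 0.56, 0.69, 0.38 and 0.51 (0.53), with the dye swap inside the range of the other arrays. *Septin9* read 0.63, 0.82, 0.36 and 0.38 (0.56), and *Wdr48*, a partner of the deubiquitinase USP1, 0.66, 0.56, 0.60 and 0.14 (0.52). In *C2cd2* (0.56), the transmembrane protein gene *Tmem158* (0.57) and *2810410L24Rik* (0.79) the dye-swapped values of 0.06, 0.08 and 0.11 lay far below those of the other arrays.

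Among the largest decreases *Resf1* read -1.41, -1.02 and -0.62 and -0.43 on the dye swap (-0.85, standard error 0.11). *Slc35e2*, a solute carrier, read -1.01, -0.88, -0.90 and -0.15 (-0.79), and its other probe -0.28. *Ikzf4*, the zinc finger factor Eos, read -0.74, -0.93, -0.57 and -0.25 (-0.67), with -0.56 on its other probe, so that both of its probes fell. *Slc30a1*, the zinc exporter of the plasma membrane, read -0.999, -0.58, -0.64 and -0.29 (-0.62). *Socs3*, which is induced by cytokines and limits their signalling, read -0.89, -0.78, -0.14 and -0.71 (-0.57, standard error 0.15, adjusted p = 0.0696), its weakest value being that of replicate 3.

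*Csrnp1*, an early response gene, read -0.79, -0.57, -0.43 and -0.55 (-0.56), and like *Socs3* its dye-swapped value lay inside the range of the other arrays. The RNA-binding *Caprin2* (-0.64), *Eif3a* (-0.60), *Zfp131* (-0.58), the olfactory receptor gene *Olfr821* (-0.54) and *R74862* (-0.50) were closer to 0 on the dye swap, at -0.10, -0.02, -0.17, -0.23 and -0.31. Of the 24 genes, 21 were still called with a dye term, 20 with median centring and 22 without replicate 3, but 0 without replicate 2. Without replicate 2 no member was called at all, against 93 at an unadjusted p under 0.05, and 7 of all probes were.

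**Figure D4:**
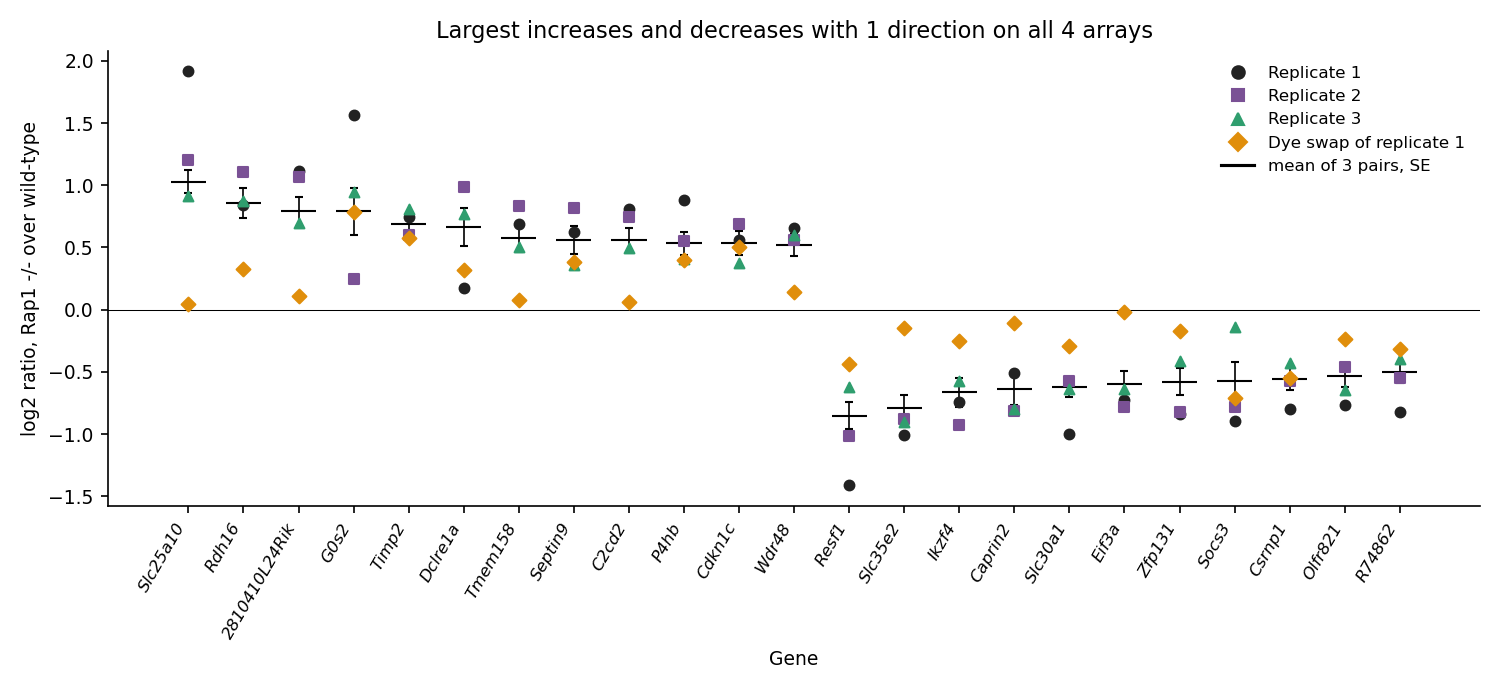
Log2 ratio of Rap1 -/- over wild-type liver on each of the 4 arrays (points) for the 12 largest increases and 11 of the 12 largest decreases among members called with 1 direction on all arrays; black lines give the mean of 3 pairs and its standard error. Orange diamonds, the dye-swapped array, lie closer to 0 than the other arrays for most genes, for example 0.04 for Slc25a10 and -0.02 for Eif3a.

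Of 44 enzymes of liver metabolism near the ends 37 were tested and 10 (27.0%) were called, a smaller share than the 34.2% of the other autosomal genes. Of the 10 calls 9 were higher and 1 lower, but 2 of the 10 had the same direction on the dye swap, and with a dye term 1 gene was called. The list had a median log2 fold change of 0.12 and of -0.04 on the dye-swapped array. Counts were 6 and 4 in the authors' value table. *Cyp8b1*, the sterol 12-alpha-hydroxylase that sets the cholic acid share of bile acids, read 3.20, 1.74 and 1.88 and -0.35 on the dye swap (1.68, standard error 0.11, adjusted p = 0.0201). *Hsd17b6*, a steroid and retinol dehydrogenase, read 1.97, 1.16, 0.85 and -0.77 (0.87). *Pcca*, a subunit of propionyl-CoA carboxylase, read 1.12, 0.77, 0.64 and -0.08 (0.64), and *Mettl7b*, a lipid droplet methyltransferase, 1.06, 1.05, 0.69 and -0.27 (0.71). All 4 were high on the arrays with *Rap1* -/- in Cy5 and low on the other. *Rdh16* and *Rdh19* (0.28, standard error 0.10, adjusted p = 0.112), both retinol dehydrogenases of a cluster on chromosome 10, were the 2 with 1 direction on all arrays. These dehydrogenases are close relatives, and whether their probes tell them apart was not tested. The gene that fell was *Coq10a* (-0.40), a binding protein of coenzyme Q, with 0.16 on the dye swap.

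A list of genes for plasma and transport proteins also held receptors, the tetraspanin gene *Cd81* and the cytokine signalling inhibitor gene *Socs3*. Of its 18 tested genes 4 were called higher and 1 lower, 27.8% in all, against 34.2% of the other autosomal genes. *Agt*, angiotensinogen, read 0.77, 0.78, 0.50 and -0.09 (0.54), and *Slc38a10*, an amino acid transporter, 0.63, 1.15, 0.51 and -0.05 (0.65). *Lrp1*, a hepatic receptor for chylomicron remnants, rose by 0.28, with -0.18 on the dye swap. *Cd81*, a tetraspanin, rose on all 4 arrays (0.56, 0.32, 0.41 and 0.12), and the gene that fell was *Socs3*. *Vipr1*, a receptor for vasoactive intestinal peptide, was at -0.22 and was not called (adjusted p = 0.163).

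The imprinted cluster of distal chromosome 7 lies 1.49 to 2.64 Mb from the end. Of 15 tested genes 7 were called higher and 2 lower (60% in all), against 34.2% of the other autosomal genes. The median was 0.22, between 0.06 and 0.40 under the alternatives tried. With a dye term 2 were called (13.3%), against 6.44% of the others, and no difference was tested. With 1 direction on all 4 arrays 4 (26.7%) were higher and 2 (13.3%) lower, against 6.07% and 6.96%. *Cdkn1c* and *Osbpl5*, an oxysterol-binding protein, were the largest of them. *Osbpl5* read 0.27, 0.58 and 0.41 and 0.76 on the dye swap (0.50, standard error 0.09, adjusted p = 0.0402), so that its 2 arrays of replicate 1 enclosed the others. *Tnfrsf23*, a decoy receptor for TRAIL, rose by 0.35 and *Cd81* by 0.36. *Kcnq1ot1*, the noncoding RNA that silences neighbours on the paternal copy, read -0.02, 0.26, 0.25 and 0.32 (0.22, standard error 0.08, adjusted p = 0.130), with 0.28 on its other probe. *Nap1l4*, a histone chaperone (0.64), and *Dhcr7*, the last enzyme of cholesterol synthesis (0.24), were called higher with -0.14 and -0.16 on the dye swap. The 2 that fell on every array were *Cars*, a transfer RNA synthetase (-0.20, standard error 0.08, adjusted p = 0.149), and *Ins2*, an insulin gene (-0.34, standard error 0.08, adjusted p = 0.0612). *Ins2* read -0.53, -0.34 and -0.39 but -0.02 on the dye swap, where *Cars* read -0.13. Neither was called with a dye term. *Tspan32* was at 0.25 and was not called (adjusted p = 0.221).

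**Figure D5:**
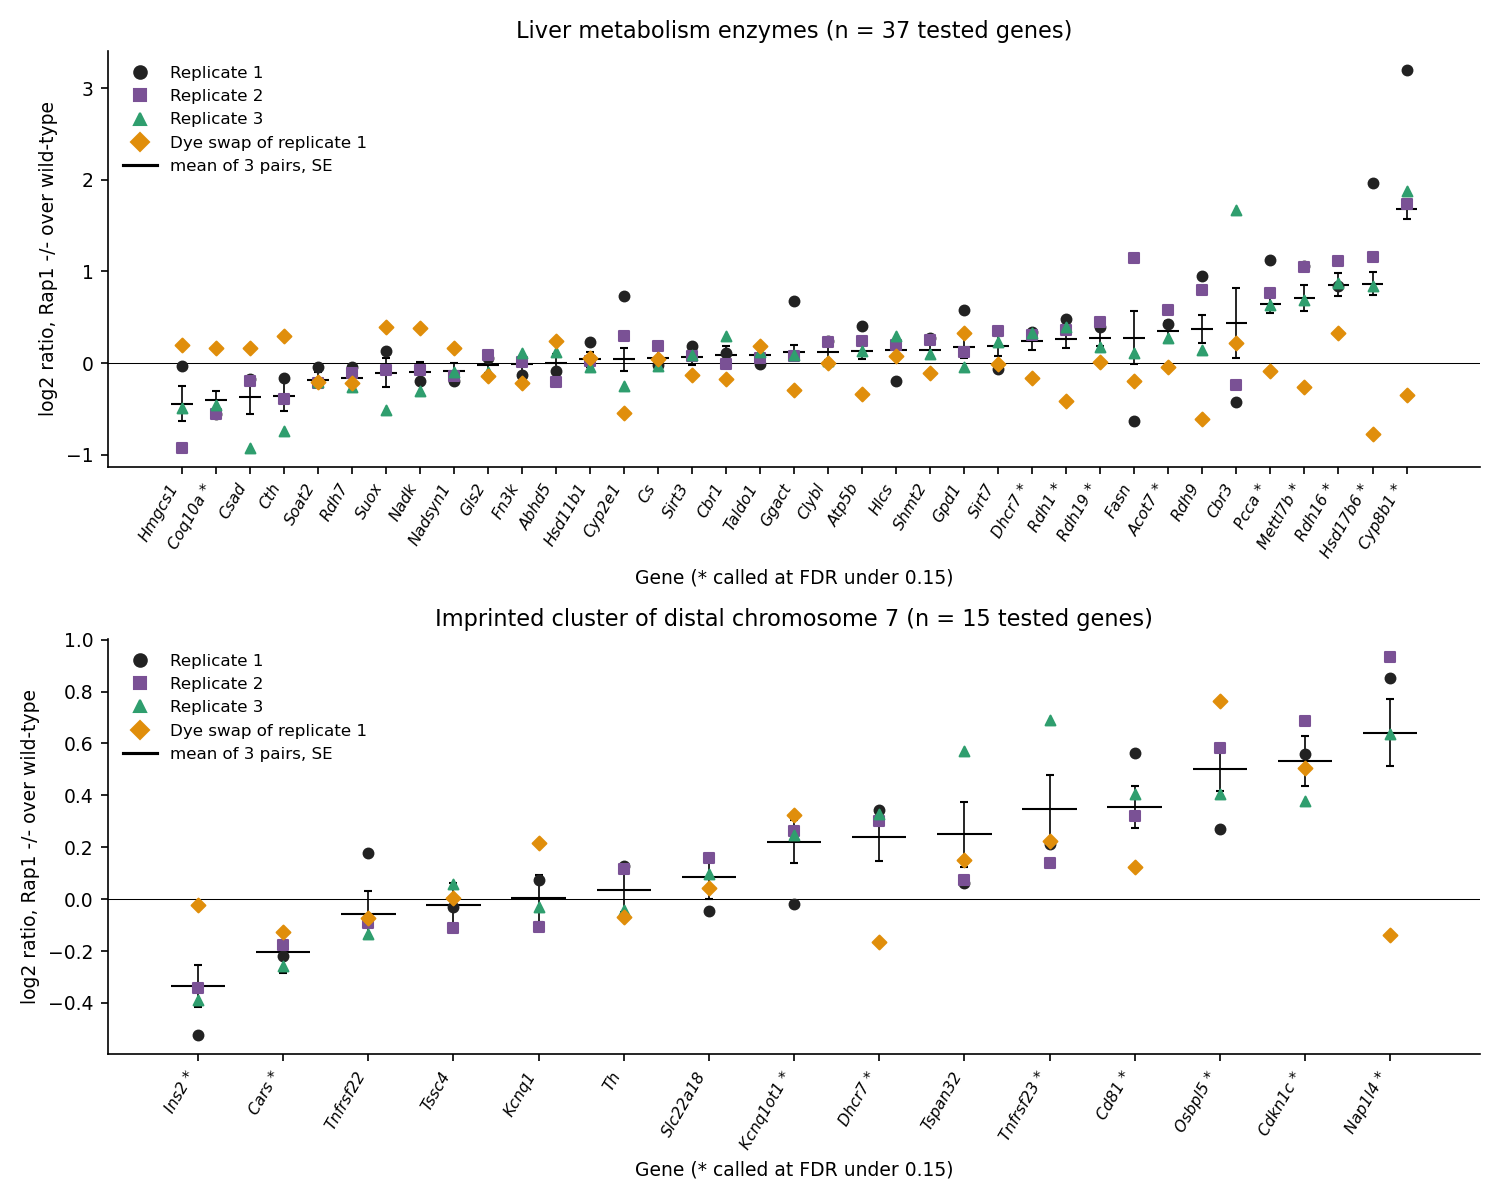
Log2 ratio of Rap1 -/- over wild-type liver on each of the 4 arrays (points) for every tested member among the liver metabolism enzymes (37 genes) and the imprinted cluster of distal chromosome 7 (15 genes), ordered by the mean of 3 pairs (black line, with its standard error); an asterisk marks a call at an FDR under 0.15. Cyp8b1 reads 3.20 on replicate 1 and -0.35 on its dye swap, whereas Cdkn1c reads 0.56 and 0.51.

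Several immune genes near the ends had their highest value on the array of replicate 3. The median log2 ratio of the tested chemokine receptor genes was 0.37 there, while replicates 1 and 2 gave -0.21 and -0.12 and the dye swap 0.086. Of 8 tested genes of the chemokine receptor clusters on chromosome 9, 0 were called higher by limma (0 also at an unadjusted p under 0.05) and 2 lower, *Ccr8* (-0.25) and *Fyco1* (-0.40), an adaptor of autophagosomes that lies within the cluster. Both were below 0 on replicate 3 too, at -0.33 and -0.57. The share of the 8 called was 25%, against 34.2% of the other autosomal genes. *Ccr2*, a receptor of monocytes, read -0.20, -0.02 and 1.49 and 0.52 on the dye swap (0.55, adjusted p = 0.252). *Cx3cr1*, the fractalkine receptor, read -0.08, 0.00, 1.33 and 0.02. Both genes were high on the same array as the Kupffer cell markers, whose median there was 1.24, and the part of cell composition was not tested. In bulk liver more cells of a type and more RNA per cell cannot be told apart.

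Of 10 tested interferon response genes 1 (10%) was called higher, against 18.1% of the other autosomal genes. It was *Irf2bp2*, a corepressor (0.37), with 0.34, 0.04, 0.62 and 0.54. *Irf7*, a master regulator of interferon genes, read 0.16, 0.42 and 1.95 and -0.56, so that replicate 3 set its mean of 0.72 (adjusted p = 0.252). *Stat2*, *Lgals3bp* and *Ifitm2* were at -0.12, 0.19 and -0.07 and were not called. Another *Lgals3bp* probe was called higher by limma, at 0.96 (adjusted p = 0.0538), with -0.49 on the dye swap. Of 6 TNF receptor genes 2 (33.3%) were called, both higher, where 34.2% of the other autosomal genes were called. They were *Tnfrsf14*, a receptor for LIGHT (0.76, with -0.22 on the swap), and *Tnfrsf23*. *Tnfrsf4* and *Tnfrsf18*, receptors of activated T cells, read 0.65 and 0.89 on replicate 3 and were not called.

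Genes for telomere and genome maintenance near the ends were called both ways, with 3 of 17 tested genes higher and 3 lower. The share called was 35.3%, against 34.2% of the other autosomal genes. *Dclre1a* rose on all 4 arrays, and *Brwd1*, a chromatin reader (-0.40, standard error 0.09, adjusted p = 0.0546), and *Prim1*, the catalytic subunit of primase (-0.35, standard error 0.10, adjusted p = 0.0801), fell on all 4. *Zbtb48*, which encodes the telomere-binding protein TZAP, read 0.56, 0.59, 0.46 and -0.11 (0.43, adjusted p = 0.0588). *Cdk2* was called higher (0.41) and *Nabp2*, a single-strand DNA binding protein (-0.25), lower, each against its dye swap of -0.32 and 0.10. The *Cdk2* probe was well above background on 4 arrays in *Rap1* -/- liver but on 2 in wild-type, so it was tested through *Rap1* -/- liver alone. *Nol9*, a kinase of ribosomal RNA processing, was at 0.16 and was not called. Of 12 chromatin genes 1 was called higher and 2 lower (25% in all), none with 1 direction on all arrays. *Alyref*, an mRNA export factor, read 1.06, 0.88, 0.59 and -0.01 (0.67). *Hmgn1*, a nucleosome-binding protein (-0.34), and *Hmgb1*, a DNA-bending protein (-0.32), had 0.14 and 0.27 on the dye swap, and other *Hmgb1* probes read from 0.30 to 2.03. Another *Hmgn1* probe was also called lower, at -0.42, with -0.16, -0.53 and -0.64 and, on the dye swap, -0.04. *Smarcc2* was at 0.11 and was not called.

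Of 8 genes of protein folding 3 (37.5%) were called, where 34.2% of the other autosomal genes were. The 2 called higher were *P4hb* and *Sdf4* (0.21, standard error 0.08, adjusted p = 0.138), both on all 4 arrays, although 1 of 3 *Sdf4* probes read -0.11. *Ptges3*, the co-chaperone p23, was called lower (-0.47) with 0.53 on the dye swap, and its 3 other probes read 0.46, 0.74 and 2.30. The chaperone genes *Cnpy2* and *Dnajc14* and *Naca*, which binds nascent chains, were at -0.19, -0.07 and -0.05 and were not called. Of 10 ribosomal protein genes *Rps26* alone (10%) was called (0.41, with -0.36 on the dye swap), and *Mrpl20*, *Rplp2* and *Rpsa* were at -0.21, -0.11 and 0.14. Of 10 tested keratin genes on chromosome 15, 3 (30%) were called, all higher. *Krt8*, the type II keratin of hepatocytes, read 0.999, 1.11, 0.98 and -0.25 (0.82), *Krt2* 1.32, 1.36, 0.94 and -0.34 (0.93), and *Krt79* rose on all arrays (0.29), while *Krt80* and *Krt6b* were at -0.22 and 0.12. The 9 *Hoxc* genes with a probe on distal chromosome 15 were all below the filter.

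Of the 315 members that were not tested, 227 were not well above background on any array in either genotype, and 60 were olfactory receptor genes. *Map10*, a microtubule-associated protein, was the 1 tested member above background on all arrays in *Rap1* -/- and on none in wild-type liver, at least 1.08-fold higher and not called (adjusted p = 0.438). Of 172 members with more than 1 tested probe, 69 had probes with fold changes of both signs. At the 5 Mb limit, *Mgat5b*, *Lmbr1l* and *Galnt2* just inside it were at 0.07, -0.16 and 0.29, and *Habp2*, *Dhh* and *Tnni3k* just outside at 0.13, -0.26 and -0.06. At the other end of the chromosomes, 449 tested genes within 5 Mb of the first annotated gene were called higher in 19.4% and lower in 18.3% of cases.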

How the data were processed

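Liver RNA was hybridised to 4 Agilent 2-colour arrays. The authors deposited median intensities of spots and of their local background in both dyes, from Feature Extraction 10.7.3.1 by the headers (the methods name another version), with the log10 ratio of Cy5 over Cy3 and well-above-background flags as other columns. The deposited processed intensities were background-subtracted and dye-normalized by that software. The authors' value table holds log2 ratios with the dye swap already turned and column medians of 0.000826 for the swap and -0.01, -0.02 and -0.02 for replicates 1 to 3. The sources used here do not state how it was background-corrected and normalized.

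In limma 3.58.1 (R 4.3.3), normexp with an offset of 50 corrected the median intensities, and loess normalized each array, controls having weight 0. Spots with an outlier flag were left out. Probes entered the test if, in 1 genotype or both, every array had 0.5 or more of their spots well above background, which kept 27513 of 55681 probes. The dye swap was turned and averaged with replicate 1, and lmFit and eBayes were run over 3 pairs. The gap between replicate 1 and its dye swap therefore did not enter the standard errors or p-values. Replicates 2 and 3 had no dye swap, so dye and genotype cannot be told apart in them. Benjamini-Hochberg adjustment was over all tested probes, with the FDR under 0.15 that the study names for liver. Here 9488 probes were called, many more than the study reports at that FDR, and the reason was not tested. The fit was tested on simulated data. Bounded folds use normalized channel values.

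Probes carry accessions. 26056 were matched to 19752 genes of a RefSeq table (GRCm38.p6), and each gene is represented by its tested probe with the highest mean intensity. Chromosome lengths were not used, so distances run to the last annotated gene. The members and lists were chosen with earlier results of these data known. Genes were named by rule: the 12 largest increases and 12 largest decreases among members called with 1 direction on all 4 arrays, the outermost tested gene of each autosome, in each list those called with 1 direction on all arrays and up to 4 others with the smallest p, the 3 genes on each side of 5 Mb, and members with a bounded genotype. Some genes that this rule names are not reported here. Alternatives changed the dye treatment, normalization, values, background correction, filter, FDR, probe choice, distance and replicates.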

Additional observations from a re-analysis of the deposited data

Results flagged for a closer look

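On the dye-swapped array several values ran against all 3 arrays with *Rap1* -/- in Cy5, and the difference between the orientations was not tested. The median log2 ratio of the members was -0.0205 there and above 0 on each of the other 3. Among genes called higher, the dye-swapped values were -0.20 for *Fgf14*, -0.11 for *Mettl4*, -0.26 for *Csf2ra*, -0.35 for *Cyp8b1*, -0.085 for *Pcca*, -0.77 for *Hsd17b6*, -0.27 for *Mettl7b*, -0.091 for *Agt*, -0.048 for *Slc38a10*, -0.18 for *Lrp1*, -0.14 for *Nap1l4* and -0.16 for *Dhcr7*. They were also negative for *Tnfrsf14* (-0.22), *Zbtb48* (-0.11), *Cdk2* (-0.32), *Alyref* (-0.00579), *Rps26* (-0.36), *Krt2* (-0.34) and *Krt8* (-0.25). Among genes called lower, they were 0.086 for *Wls*, 0.53 for *Ptges3*, 0.10 for *Nabp2*, 0.14 for *Hmgn1* and 0.27 for *Hmgb1*.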

How the results depend on the processing

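The counts of calls depended most on replicate 2 and on the dye swap. Leaving out each replicate in turn gave 0 to 305 members called, 0 to 185 higher and 0 to 120 lower, with 0 of each without replicate 2 (93 at an unadjusted p under 0.05) and 67, 45 and 22 without replicate 3. The median log2 ratio of the members stayed at 0.03 to 0.04 and their share called minus that of other genes at -4.19 to -0.03 points. With the dye swap as a replicate of its own 1 member was called, 1 higher and 0 lower. With a dye term 47 were called, 29 and 18, and without the dye swap 352, of which 149 were lower, with a median of 0.054. At an FDR under 0.05, 62 were called, 42 and 20. Median centring gave 16 lower and a median of 0.20, the authors' values gave 134 lower and a median of -0.037, the processed signals a median of -0.039, no filter on dim probes 0.019 and the mean over probes 0.051. Within 1 Mb of the end 38 genes were called, 17 higher and 21 lower, with a median of 0.016 and a share -7.75 points from that of other genes, and within 10 Mb 432, 258 and 174. *Ptges3* and *Hmgb1* turned to 0.76 and 0.82 with the mean over their probes, whose signs differ. The cause of the other changes was not tested. Of 66 named genes that were called, the same call was found for 0 without replicate 2, 25 with a dye term, 35 without replicate 3, 45 with median centring and 53 with the processed signals. Distances to the sequence end were not run, since chromosome lengths were not used here. Each array sets both genotypes of 1 replicate number against each other, so the fit is itself paired. No paired analysis was possible beyond it, because no further block exists. Dim probes limit what can be seen: 315 of 1039 members were not tested.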
